A study of Mus musculus with 10 samples.

Results

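The 10 genes described here handle iron and heme: Cd163, Slc48a1, Blvrb, Trf, Tfrc, Steap3, Slc11a1, Fth1, Ftl1 and Slc40a1. They were taken by gene symbol from tables of 46956 named loci, and all 10 passed the filter on low counts that left 12500 loci for testing. RNA was sequenced from tumour-associated macrophages of Balb/cJ mice carrying 4T1 tumours, a mouse mammary carcinoma line placed in the mammary fat pad. Viable cells positive for CD45, CD11b and F4/80 and negative for CD8, Ly6C and Ly6G were sorted. The 5 vehicle samples came from mice given PBS, and the 5 JHU083 samples from mice given 1 mg/kg JHU083 from day 7 to day 13; all tumours were taken on day 14. JHU083 releases the glutamine antagonist 6-diazo-5-oxo-L-norleucine in the body. The tumour, strain, sort and harvest day were shared by both groups. The labels give no age or sex and do not say whether a sample is 1 mouse, so the p-values measure the spread between these samples.

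Macrophages take up iron bound to transferrin through the transferrin receptor, and heme iron from haemoglobin and from engulfed red cells. Heme is opened by heme oxygenase, which frees iron and makes biliverdin. Freed iron is stored in ferritin, a shell of heavy and light chains, or leaves the cell through ferroportin, the iron exporter encoded by Slc40a1. Iron regulatory proteins bind hairpins in messenger RNAs called iron-responsive elements: a hairpin before the coding sequence blocks translation, and hairpins after it stabilise the RNA.

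Of the 10 genes, 4 carried such hairpins in the GENCODE M21 transcripts (GRCm38). The search asked for a C, 5 bases, the loop CAGTGN or CAGAGN, and 5 bases that pair with the first 5 (G-T pairs allowed), on the transcribed strand of UTRs only. It found a match in the 5′ UTR of 0.33% of genes and in the 3′ UTR of 1.19%. The 8 matches are shown because they separate the genes with a 5′ hairpin (Fth1, Ftl1, Slc40a1) from Tfrc, which has 5 in its 3′ UTR. Capitals mark the loop, and each sequence of 30 bases is written 5′ to 3′ in DNA letters.
Fth1 5′ UTR, chr19:9982731-9982760, plus strand: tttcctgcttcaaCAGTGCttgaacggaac
Ftl1 5′ UTR, chr7:45459779-45459808, minus strand: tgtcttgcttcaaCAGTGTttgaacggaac
Slc40a1 5′ UTR, chr1:45925465-45925494, minus strand: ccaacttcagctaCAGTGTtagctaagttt
Tfrc 3′ UTR, chr16:32631159-32631188, plus strand: tatttatcagtgaCAGAGTtcactataaat
Tfrc 3′ UTR, chr16:32631218-32631247, plus strand: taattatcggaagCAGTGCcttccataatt
Tfrc 3′ UTR, chr16:32631597-32631626, plus strand: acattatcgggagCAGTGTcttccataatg
Tfrc 3′ UTR, chr16:32631662-32631691, plus strand: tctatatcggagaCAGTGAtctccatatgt
Tfrc 3′ UTR, chr16:32631709-32631738, plus strand: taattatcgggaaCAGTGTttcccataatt

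The libraries held 11147723 to 15740488 fragments on named loci, with a mean of 12744705 in vehicle and 14617310 in JHU083. Fragments of Rn18s-rs5 and Gm42418, loci related to ribosomal RNA, made up 2.87% to 5.59% of some libraries and were absent, with a value of 0, from 3 libraries of vehicle and 2 of JHU083. Each difference was also computed within these sets of 5 libraries, where 8.79% of loci were called in the set at 0 and 21.8% in the other. Some libraries were closer in counts to their set in the other group than to the other set in their own group. JHU083 replicate 3 had the lowest sample quality weight in limma, 0.292 against 0.762 to 1.94 in the others. The macrophage markers were present in every library, and 5 of 11, among them Adgre1 and Csf1r, were higher in JHU083, 0 were lower and 6 did not pass. Over all loci tested, 18.4% were higher and 18.3% lower. In bulk RNA, fewer cells of a type and less RNA per cell cannot be told apart.

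JHU083 was compared with vehicle by edgeR's quasi-likelihood test across all 12500 loci, and a gene was called at an adjusted p under 0.05. Slc40a1, Slc48a1 and Slc11a1 rose and Tfrc fell, while Cd163, Blvrb, Trf, Steap3, Fth1 and Ftl1 did not pass. So 3 of 10 were higher, beside 18.4% of all loci, and 1 of 10 lower, beside 18.3%; together this is near the 36.7% called in either direction. With library totals in place of TMM (trimmed mean of M-values) scaling, 1564 loci were higher and 3141 lower, against 2296 and 2293 in the reported fit, and the same numbers of the 10 genes were called. The median log2 fold change of the 10 genes was 0.24, and that of all loci 0.01. For 2 of the 10, Slc40a1 and Slc48a1, the 5 JHU083 values all lay above the 5 vehicle values, as in 11.2% of all loci.

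**Figure D1:**
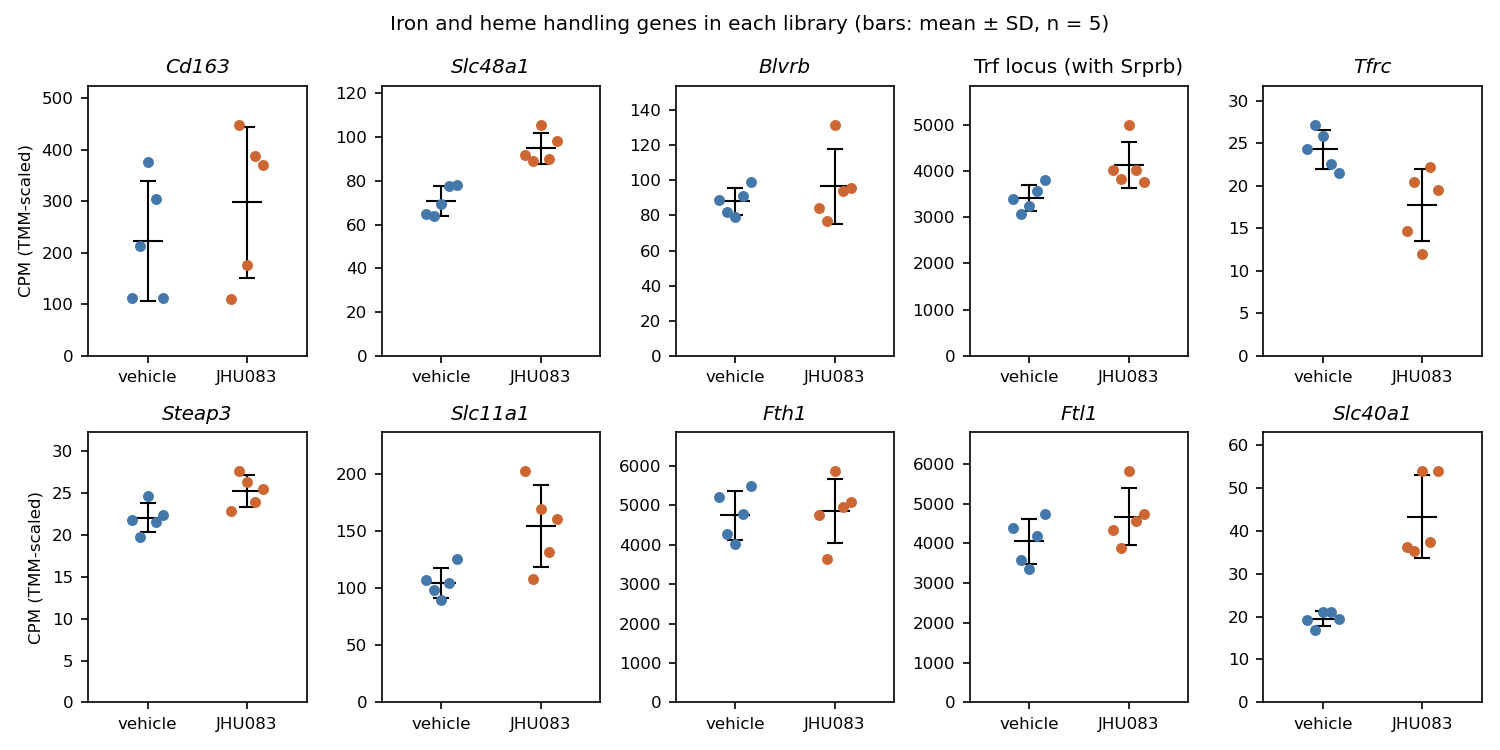
Level of each of the 10 genes (y axis, TMM-scaled CPM, from 0) in the 5 vehicle and 5 JHU083 libraries; points are libraries and bars the mean ± SD. Slc40a1 (16.8 to 21.0 against 35.2 to 53.9) and Slc48a1 are apart between the groups, while the others overlap.

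Among the 10 genes, the largest change was in the exporter. Slc40a1 (chromosome 1, 45908068 to 45926523, GRCm38, protein coding) had 19.2, 16.8, 21.0, 21.0 and 19.5 CPM (fragments scaled to a common library size, with TMM factors) in vehicle replicates 1 to 5. In JHU083 replicates 1 to 5 it had 36.2, 35.2, 53.8, 37.4 and 53.9 CPM. The lowest JHU083 library was well above the highest vehicle library, and replicates 3 and 5 were the highest of their group. The group means were 19.5 ± 1.71 and 43.3 ± 9.68 CPM (SD, n = 5). The log2 fold change was 1.15 ± 0.14 (SE, edgeR adjusted p = 3.03e-05), or 2.22-fold. The difference was 1.24 in the libraries with Rn18s-rs5 at 0 (edgeR adjusted p = 0.00626) and 1.06 in the others (adjusted p = 0.00285). Its 5′ hairpin, shown above, acts on translation, which RNA levels do not measure.

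Iron export and its control were read from a list of 15 genes that includes Slc40a1. Of the 11 tested, 4 were higher (Slc40a1, Spic, Bach1 and Nfe2l2) and 0 lower, beside 18.4% and 18.3% of all loci, with a median log2 fold change of 0.26. Spic, a transcription factor known for directing the identity of splenic red pulp macrophages, averaged 2.61 ± 0.44 CPM without and 6.26 ± 0.96 CPM with JHU083 (SD, n = 5) and rose by 1.26 on the log2 scale (edgeR adjusted p = 0.000101). Its 5 vehicle values lay between 2.06 and 3.24 CPM and its 5 JHU083 values between 5.14 and 7.66 CPM. Bach1, a repressor that heme removes from its target genes, rose by 0.55 (adjusted p = 0.0117), and Nfe2l2, which encodes the activator NRF2 of the same targets, by 0.33 (adjusted p = 0.00551). Within the library set with Rn18s-rs5 at 0 neither passed (adjusted p = 0.206 for Bach1 and 0.14 for Nfe2l2), and in the other set Bach1 passed (adjusted p = 0.045) and Nfe2l2 did not (adjusted p = 0.0798). For Bach1 the groups overlapped, since JHU083 replicate 3 had 139 CPM against 208 to 226 CPM in the other 4. The genes of both iron regulatory proteins did not pass: Aco1 differed by 0.05 (adjusted p = 0.588) and Ireb2 by 0.26 (adjusted p = 0.121). Ireb2 passed without JHU083 replicate 3 (0.36, adjusted p = 0.01), without vehicle replicate 3 (0.34, adjusted p = 0.0495) and with limma's quality weights (0.33, adjusted p = 0.013).

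Tfrc encodes the transferrin receptor, the entry route for transferrin-bound iron. Tfrc (chromosome 16, 32608920 to 32632794) had 24.3, 27.2, 25.9, 22.5 and 21.5 CPM in vehicle and 14.7, 20.4, 12.003, 22.2 and 19.5 CPM in JHU083. JHU083 replicates 1 and 3 were the lowest, and replicate 4 lay within the vehicle range. The means were 24.3 ± 2.33 and 17.8 ± 4.24 CPM (SD, n = 5). The log2 fold change was -0.45 ± 0.15 (SE, edgeR adjusted p = 0.0276). This call was lost without JHU083 replicate 1 (-0.39, adjusted p = 0.0688) and without vehicle replicate 2 (-0.41, adjusted p = 0.0656). It was lost as well with limma on log2(FPKM + 1) (-0.61, adjusted p = 0.0959) and log2(FPKM + 0.1) (-0.72, adjusted p = 0.0881), where FPKM are fragments per kilobase and library depth. Within the libraries with Rn18s-rs5 at 0, which include JHU083 replicates 1 and 3, the difference was -0.83 (adjusted p = 0.0229). Within the others it was -0.29 and not past the threshold (adjusted p = 0.153).

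Markers of tumour epithelium, fibroblasts and dividing cells moved with Tfrc, although the sort on CD45 should remove epithelium and fibroblasts. Of 9 epithelial markers, 8 were tested and all 8 were lower in JHU083. Over all loci, 18.3% were lower, which is the share to set beside each count in this paragraph. The summed level of the epithelial markers was 298 to 649 CPM in vehicle and 104 to 220.0 CPM in JHU083. The keratin gene Krt5 was at 0 in JHU083 replicates 2 and 5, and each of the others was detected in every library. Of 12 cell cycle genes, 11 were lower, with summed levels of 572 to 662 CPM against 257 to 379 CPM. Of 7 fibroblast markers, 5 were lower, with summed levels of 103 to 226 CPM against 25.9 to 115 CPM. Of 3 tested endothelial markers, 1 was lower, Pecam1, which macrophages can also express and which made up most of their summed level (122 to 210 CPM against 34.4 to 82.8 CPM). Cdh5 (-0.49, adjusted p = 0.176) and Kdr (-0.15, adjusted p = 0.362) did not pass. The part of these markers in the Tfrc difference was not tested.

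Some markers listed for other cell types rose beside Slc40a1, Slc48a1 and Slc11a1. They were the T cell marker Cd4 (log2 fold change 1.12, edgeR adjusted p = 2.07e-05), which some macrophages also express, and the monocyte marker Chil3 (2.08, adjusted p = 0.00374). The others were the eosinophil marker Siglecf (0.89, adjusted p = 0.0115) and the neutrophil marker Csf3r (0.53, adjusted p = 0.000663). Of 5 T cell markers only Cd4 passed the filter on low counts. Of 5 tested monocyte markers 1 was higher and 1 lower (Vcan, -1.06, adjusted p = 0.0129). Of 3 tested eosinophil markers 1 was higher, and of 6 tested neutrophil markers 1 was higher and 2 lower. Over all loci, 18.4% were higher and 18.3% lower. The part of these markers in the rise of the 3 genes was not tested.

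Trf, Steap3 and Slc11a1 complete the uptake genes among the 10. Trf encodes transferrin, the iron carrier, but its locus (chromosome 9) also lists Srprb, a subunit of the signal recognition particle receptor, and Gm20425, a gene that spans both, so the value covers all 3. This locus had 3401, 3081, 3245, 3569 and 3813 CPM in vehicle and 4023, 3824, 5006, 4029 and 3762 CPM in JHU083. Only JHU083 replicate 5 lay within the vehicle range, and replicate 3 stood above the rest. The log2 fold change of 0.27 ± 0.11 (SE) missed the threshold (edgeR adjusted p = 0.0685), but passed with DESeq2 (adjusted p = 0.0141) and limma-voom (adjusted p = 0.0361).

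Steap3 encodes a ferrireductase of endosomes, which prepares iron for transport. It ranged from 19.8 to 24.7 CPM (median 21.8) in vehicle and from 22.8 to 27.6 CPM (median 25.5) in JHU083, with a log2 fold change of 0.20 ± 0.09 (SE, edgeR adjusted p = 0.0945). The groups overlapped.

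Slc11a1 encodes NRAMP1, a metal transporter of late endosomes and phagosomes; BALB mice carry the allele of this gene known for susceptibility to intracellular pathogens. It had 107, 98.4, 89.2, 104 and 125 CPM in vehicle and 202, 108, 169, 132 and 160 CPM in JHU083. JHU083 replicate 1 was the highest, and replicate 2 lay inside the vehicle range. Slc11a1 rose, with a log2 fold change of 0.56 ± 0.14 (SE, edgeR adjusted p = 0.00764). It was 0.77 in the libraries with Rn18s-rs5 at 0 (adjusted p = 0.0122) and 0.43 in the others, where it missed the threshold (adjusted p = 0.076).

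Among the 16 uptake genes listed, Tfrc and Slc11a1 included, 14 were tested, 4 were higher and 4 lower, beside 18.4% and 18.3% of all loci, and the median log2 fold change was 0.06. Hfe, which encodes a partner of transferrin receptors that takes part in iron sensing, rose from 114 ± 15.8 to 207 ± 27.9 CPM (SD, n = 5; log2 fold change 0.86, edgeR adjusted p = 4.78e-05). Its lowest JHU083 library had 184 CPM and its highest vehicle library 134 CPM. Slc39a8, a zinc and iron importer, rose by 0.50 (adjusted p = 0.0122) but passed in neither library set (adjusted p = 0.132 and 0.0887), and Rhbdf2, an inactive rhomboid protein, fell by 0.53 (adjusted p = 0.000139). Steap2, a metalloreductase, averaged 6.60 ± 3.14 CPM in the vehicle group but 1.45 ± 0.59 CPM with JHU083 (SD, n = 5), and its log2 fold change was -2.173 (adjusted p = 0.000339). With limma on log2(FPKM + 1) its difference was -0.79 (adjusted p = 0.00942). The epithelial marker sum given above was lower in the same libraries, and its part in the Steap2 difference was not tested.

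Heme uptake and breakdown were represented by Cd163, Slc48a1 and Blvrb. Cd163, the receptor for haemoglobin bound to haptoglobin, had 112, 213, 375, 304 and 113 CPM in vehicle and 111, 449, 176, 387 and 369 CPM in JHU083. Each group held libraries near 111 CPM and libraries above 300 CPM, so the groups overlapped almost fully. The log2 fold change was 0.42 ± 0.38 (SE, edgeR adjusted p = 0.417). It was -0.55 in the libraries with Rn18s-rs5 at 0 (adjusted p = 0.367) and 0.71 in the others (adjusted p = 0.166), so the 2 sets differed in sign and neither passed.

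Slc48a1 encodes HRG1, which carries heme out of the phagolysosome. It had 64.8, 63.9, 69.6, 77.7 and 78.0 CPM in vehicle and 91.6, 89.1, 106, 89.9 and 98.1 CPM in JHU083. Every JHU083 library was above every vehicle library. Slc48a1 rose by 0.42 ± 0.08 on the log2 scale (SE, edgeR adjusted p = 0.00135), the same size as that of Cd163 with a much smaller error. Within the libraries with Rn18s-rs5 at 0 it was 0.43 (adjusted p = 0.078), and within the others 0.45 (adjusted p = 0.0198).

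Blvrb encodes biliverdin reductase B, a flavin and biliverdin reductase. It ranged from 79.4 to 99.0 CPM (median 88.7) in vehicle and from 76.8 to 132 CPM (median 93.9) in JHU083, where replicate 3 was the highest. Its log2 fold change of 0.13 ± 0.12 (SE) did not pass (edgeR adjusted p = 0.425) and was -0.003 without JHU083 replicate 3.

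Of 16 genes listed for heme uptake and breakdown, Slc48a1 among them, 14 were tested, 5 were higher and 0 lower, beside 18.4% and 18.3% of all loci (median log2 fold change 0.20). Hmox1, the inducible heme oxygenase, had 454 to 535 CPM (median 487) in vehicle and 452 to 712 CPM (median 648) in JHU083. JHU083 replicate 2 was the lowest of all 10 libraries and the other 4 lay above every vehicle library. The log2 fold change was 0.31 ± 0.11 (SE, edgeR adjusted p = 0.0379). The call was lost in 6 of the 10 fits that left out 1 sample, namely vehicle replicates 1 to 4 and JHU083 replicates 4 and 5, with adjusted p from 0.0533 to 0.101. It was also lost with library totals (0.23, adjusted p = 0.0867), limma-voom (adjusted p = 0.0539) and limma on log2(FPKM + 1) (adjusted p = 0.0547) or log2(FPKM + 0.1) (adjusted p = 0.0543), and within both library sets (adjusted p = 0.215 and 0.169). Abcg2, an exporter of heme and other porphyrins, rose from 12.8 ± 0.58 to 21.5 ± 2.78 CPM (SD, n = 5). Its log2 fold change was 0.75 (edgeR adjusted p = 0.000123). No overlap between the groups was a condition for naming it.

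Fragments of the adult globin genes, which encode the protein chains that bind heme in red cells, were counted as a marker of red cell RNA. Hba-a1, Hba-a2, Hbb-bs and Hbb-bt together gave 33, 22, 17, 21 and 28 fragments in vehicle replicates 1 to 5 and 0 in each of the 5 JHU083 libraries. The 121 vehicle fragments amount to 1.90 CPM (unscaled), and 0 in JHU083 allows up to 0.041 CPM (3 fragments over the group, counting error only), so the level was at least 46.3-fold lower. Globin RNA was thus a trace in vehicle and not detected in JHU083, and its part in the heme gene differences was not tested.

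**Figure D2:**
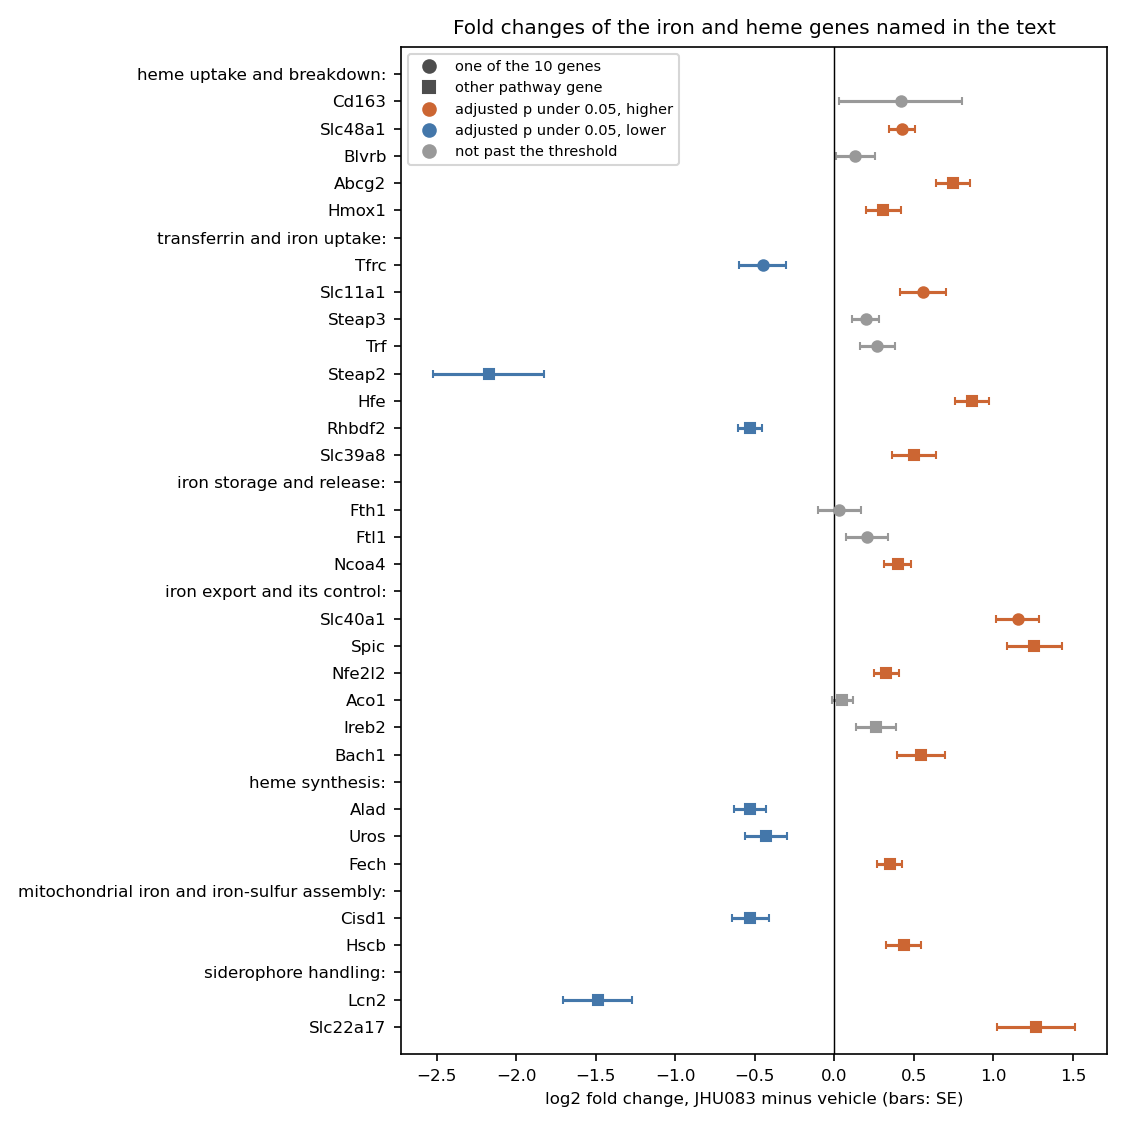
Log2 fold change, JHU083 minus vehicle (x axis), with its standard error as a bar, for the 10 genes (circles) and the other iron and heme genes named in the text (squares), by role. Slc40a1 (1.15) is the highest of the 10 and Tfrc (-0.45) the lowest; grey marks values that did not pass.

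Ferritin was the most abundant product of the 10. Fth1, the heavy chain with ferroxidase activity, had 5221, 4263, 4020.2, 4772 and 5488 CPM in vehicle and 4764, 3640.4, 5871, 4947 and 5078 CPM in JHU083. The groups overlapped, and the log2 fold change was 0.03 ± 0.14 (SE, edgeR adjusted p = 0.875). It was -0.05 when library totals replaced TMM scaling. Ftl1, the light chain, which helps the mineral core to form, had 4387, 3573, 3351, 4192 and 4728 CPM in vehicle and 4324, 3892, 5817, 4559 and 4749 CPM in JHU083. JHU083 replicate 3 was the highest, the groups overlapped, and the log2 fold change was 0.21 ± 0.13 (SE, adjusted p = 0.24). Together both genes took 0.75% to 1.02% of all fragments in vehicle and 0.75% to 1.10% in JHU083.

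The ratio of the chains, a comparison chosen after their values were seen, was apart between the groups, while neither level was. No test was run on it, and the share of other gene ratios that are apart was not computed. Of single loci, 22.3% were apart. Fth1 had 1.19, 1.19, 1.1998, 1.138 and 1.16 fragments for each Ftl1 fragment in vehicle and 1.10, 0.935, 1.01, 1.09 and 1.07 in JHU083. Every JHU083 library was below every vehicle library, with means of 1.18 ± 0.026 and 1.04 ± 0.068 (SD, n = 5). Such a ratio does not depend on the scaling between libraries. Ferritin genes have processed copies: Ftl1-ps1 held 71 to 143 fragments a library and the other listed copies at most 9, against 44420 or more for Ftl1, and how the authors' counting divided shared reads is not stated. The Ftl1 locus also lists Gm22133, a small RNA gene inside it.

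A second ratio, also chosen after the values were seen, set export against uptake and restates the calls of Slc40a1 and Tfrc. Slc40a1 over Tfrc, in CPM, was 0.79, 0.62, 0.81, 0.93 and 0.91 in vehicle and 2.46, 1.72, 4.48, 1.69 and 2.76 in JHU083. The separation of the groups in this ratio follows from that of Slc40a1 and is no further evidence. These counts are not divided by transcript length, so the ratio compares libraries and not the level of one gene with the other.

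**Figure D3:**
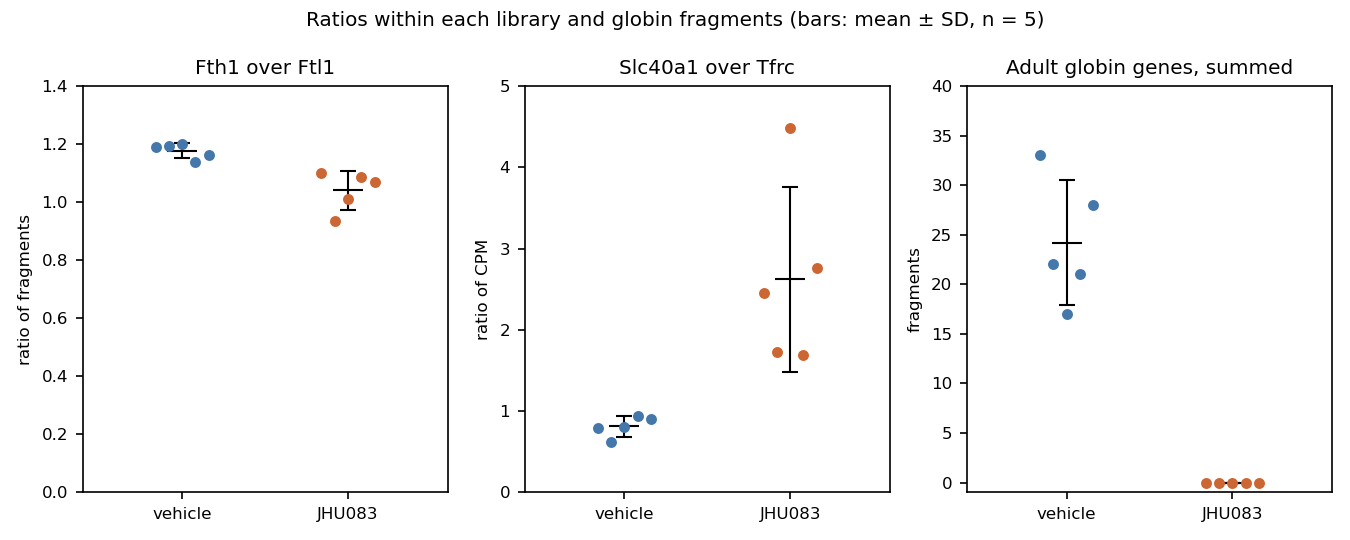
Ratio of Fth1 to Ftl1 fragments, ratio of Slc40a1 to Tfrc CPM, and summed fragments of 4 globin genes (y axes, linear) in each library, with mean ± SD as bars. In all 3 panels the 5 JHU083 libraries are apart from the 5 vehicle libraries, and globin fragments are 0 in JHU083.

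Among 7 tested genes of iron storage and release, 1 was higher and 0 lower, beside 18.4% and 18.3% of all loci. This was Ncoa4, the receptor that carries ferritin to the lysosome, with 72.4 to 90.5 CPM (median 74.0) in vehicle and 91.6 to 112 CPM (median 104) in JHU083. Its log2 fold change was 0.40 ± 0.08 (SE, edgeR adjusted p = 0.0022), and it missed the threshold in the library set with Rn18s-rs5 at 0 (adjusted p = 0.0979). Vehicle replicate 3 was the highest of its group and just below the lowest JHU083 library.

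Heme synthesis and iron-sulfur assembly are the main uses of iron in the mitochondrion. Of 11 tested heme synthesis genes, 1 was higher and 3 lower, beside 18.4% and 18.3% of all loci (median log2 fold change -0.18). Alad and Uros, enzymes of early steps, fell by 0.53 and 0.43 on the log2 scale (edgeR adjusted p = 0.00121 and 0.0188). Uros was not past the threshold without the filter on low counts (adjusted p = 0.063) or within either library set (adjusted p = 0.211 and 0.246). Fech, which inserts iron into the porphyrin ring as the last step, rose by 0.35 (adjusted p = 0.00425). Alad and Fech passed in the set with Rn18s-rs5 above 0 and not in the set at 0 (adjusted p = 0.097 and 0.214). Of 28 tested genes of mitochondrial iron and iron-sulfur assembly, 1 was higher and 3 lower, smaller shares than the 18.4% and 18.3% of all loci. Hscb, a cochaperone of cluster transfer, rose by 0.44 (adjusted p = 0.00703), and Cisd1, an iron-sulfur protein of the outer mitochondrial membrane, fell by 0.53 (adjusted p = 0.00298). Neither passed within a library set (adjusted p = 0.131 and 0.0596 for Hscb, 0.0979 and 0.0572 for Cisd1).

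Siderophore handling had 2 tested genes. Lcn2, which binds bacterial siderophores, fell by 1.49 on the log2 scale (edgeR adjusted p = 0.000168), with means of 15.7 ± 4.50 CPM in vehicle against 5.62 ± 1.45 CPM (SD, n = 5). Slc22a17, the lipocalin-2 receptor, rose from 1.39 ± 0.44 to 3.38 ± 0.52 CPM (SD, n = 5; 1.27, adjusted p = 0.00126), with a difference of 0.63 by limma on log2(FPKM + 1). Neutrophils and epithelium also make Lcn2, although the sort, negative for Ly6G and positive for CD45, should remove both. Of 6 tested neutrophil markers, S100a8 (-1.40, adjusted p = 0.000872) and S100a9 (-2.18, adjusted p = 0.000196) were lower and Csf3r was higher (0.53, adjusted p = 0.000663). Over all loci, 18.3% were lower and 18.4% higher. Ngp had 7 to 13 fragments in vehicle libraries and 0 to 1 in JHU083 libraries. The sum of the 9 listed, most of it Csf3r, was 98.0 to 110 CPM in vehicle and 98.4 to 151 CPM in JHU083, and the epithelial sum was lower as given above. Their part in the Lcn2 difference was not tested. In all, 77 pathway genes outside the 10 were tested, of which 14 were higher and 10 lower, near or below the 18.4% and 18.3% of all loci. The groups did not overlap for 19 of the 77, beside 22.3% of all loci. Apart from the 6 fixed regulators, pathway genes were named only where the groups did not overlap. For those genes the lack of overlap is no further evidence.

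Levels were compared between genes per length, with the deposited FPKM. In vehicle the median order was Fth1 (6707), Ftl1 (6073), the Trf locus (2117), Blvrb (104), Slc11a1 (75.3), Cd163 (44.4), Slc48a1 (27.6), Steap3 (7.65), Slc40a1 (6.33) and Tfrc (5.21). Neighbours in this order overlapped except at 3 steps: Ftl1 to the Trf locus, the Trf locus to Blvrb, and Slc48a1 to Steap3. In JHU083 the median order changed at 2 places, with Slc11a1 (131) above Blvrb (111) and Slc40a1 (11.4) above Steap3 (9.09). Slc40a1 ranged from 10.5 to 18.1 FPKM there and Steap3 from 8.08 to 9.86 FPKM, without overlap. The Tfrc value of vehicle replicate 4 was 14.5 FPKM against 4.38 to 5.63 FPKM in the other vehicle libraries, although its CPM was within their range.

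**Figure D4:**
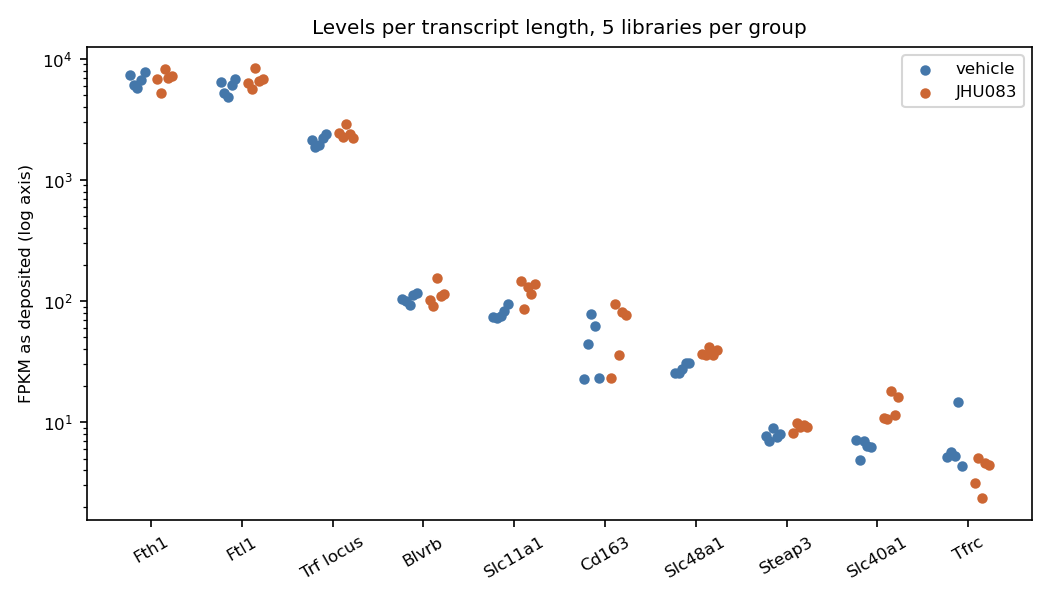
Deposited FPKM (y axis, log scale) of the 10 genes in 5 vehicle and 5 JHU083 libraries, ordered by the vehicle median. Ferritin and the Trf locus lie above 1861, and Slc40a1 moves from 4.91 to 7.15 in vehicle to 10.5 to 18.1 in JHU083.

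The 10 genes did not vary as one block between libraries of a group. After group means were subtracted, log2 CPM of Fth1 and Ftl1 had r = 0.95, Ftl1 and Blvrb r = 0.92, Cd163 and Slc11a1 r = -0.82, and Tfrc and the Trf locus r = -0.82 (10 libraries, a description). Genes of a library share its depth and scaling, and the split by Rn18s-rs5 was not subtracted. For Slc40a1, the closest profiles over the 10 libraries among 6718 loci were Creg1 (r = 0.99), Ms4a7 (r = 0.98) and Capza2 (r = 0.98). For Tfrc they were Wdr43 (r = 0.94), Naa25 (r = 0.93) and Gja1 (r = 0.93), and for Fth1 Ndufv2 (r = 0.98), Vti1b (r = 0.96) and Prdx1 (r = 0.95). The difference between the groups enters r for the first 6 of these genes.

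**Figure D5:**
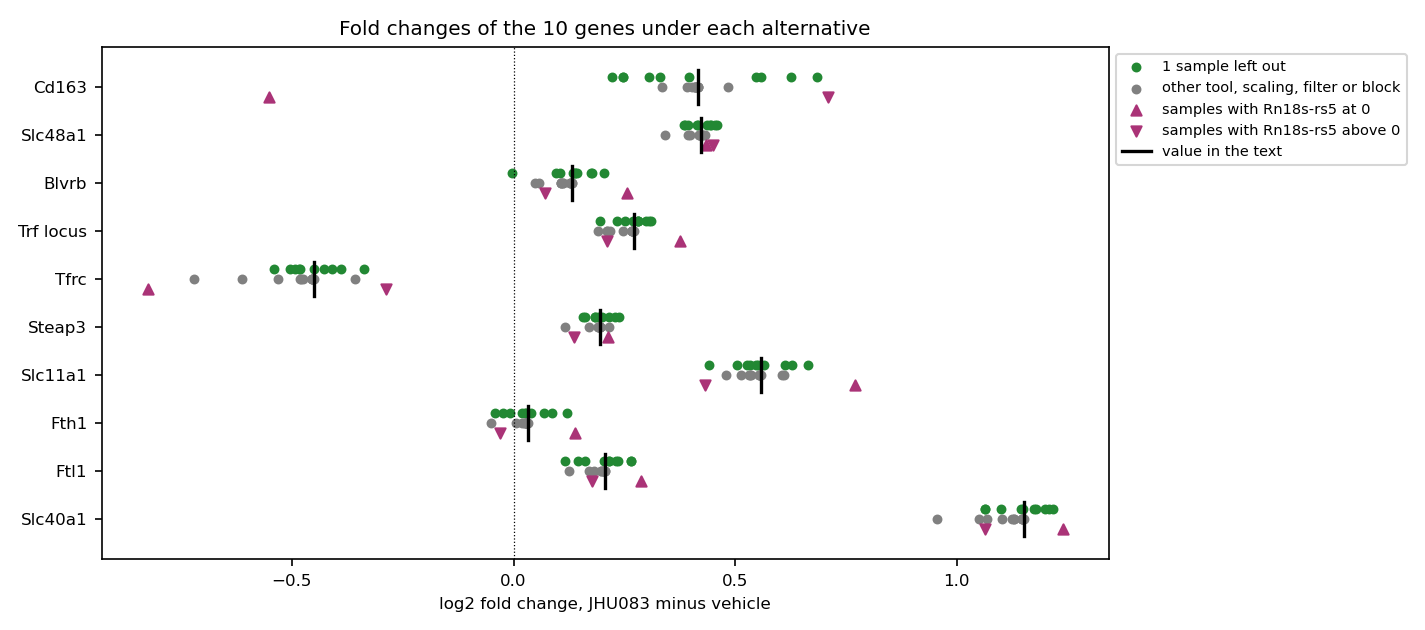
Log2 fold change, JHU083 minus vehicle (x axis), of the 10 genes in the reported fit (black bar) and in 25 alternatives. Slc40a1 stays between 0.95 and 1.24, while Cd163 runs from -0.55 to 0.71 between the library sets split by Rn18s-rs5 (triangles).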

How the data were processed

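Polyadenylated RNA was sequenced from Illumina-indexed libraries, 5 per group. The submitters' processing notes name TopHat2 2.1.1, bcl2fastq 2.17.1.14, FastQC 0.11.2 and GRCm38; the counting program and annotation are not given in the sources used here. Per the file headers the authors deposited raw counts, but these expected counts are not whole: they are multiples of a step of 0.888 to 1.17 per sample. Division by the step gave whole numbers (within 0.01, or the rounding of the deposited digits) for 99.8% to 99.9% of positive values, which were rounded. The second column the authors deposited, headed as normalized, was read as FPKM from its values. One locus without a symbol, at most 0.0021% of fragments, was left out.

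Loci were filtered with filterByExpr, scaled with TMM and tested with edgeR 4.0.16 in R 4.3.3 (no covariate, Benjamini-Hochberg adjustment over all loci). SE was obtained from the log2 fold change and the F statistic. CPM use TMM-scaled totals, log2 CPM a prior count of 2. On simulated counts of 12374 loci with 200 changed by 1 on the log2 scale, 83% were recovered, and 5.68% of the 176 calls were false. Fewer loci were changed there than were called here, and by more than any of the 10 genes but Slc40a1. Recovery of smaller changes was not simulated. No pair of libraries agreed within counting noise (chi-square per degree of freedom at least 6.53). JHU083 replicates 1 and 3 lay nearer to vehicle 2, 4 and 5 (50.5 to 66.7) than to other JHU083 libraries (93.9 to 127). These 5 are the libraries with Rn18s-rs5 at 0. Vehicle replicate 3 lay nearer to JHU083 2, 4 and 5 (41.4 to 52.3) than to vehicle 2, 4 and 5 (76.7 to 101). Vehicle replicate 1 lay nearer to these vehicle libraries (53.5 to 56.8) than to these JHU083 libraries (78.3 to 106). The reported fit had no term for this split. Alternatives were DESeq2 1.42.0, limma 3.58.1 (voom, with quality weights, or log2(FPKM + 1) and log2(FPKM + 0.1)), other scalings and filters, the deposited values rounded, leaving out each sample or the Rn18s-rs5 and Gm42418 loci, fits within sets of libraries, and a replicate block. The 10 genes, the lists and the tests were chosen with earlier results of these data known. Named are the 10, called pathway genes without overlap between groups (at most 4 a list by fold change), 6 fixed regulators, and for Slc40a1, Tfrc and Fth1 the 3 closest profiles among loci with 1 symbol and an average log2 CPM of at least 4. Of 102 pathway genes, 101 matched a locus, 5 by an older symbol in RefSeq. Positions are from GENCODE M21.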

Additional observations from a re-analysis of the deposited data

Results flagged for a closer look

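Of 76 groups of 5 values examined, 5 held a library far from the others, and 3.8 would be marked by chance, at about 1 in 20. JHU083 replicate 3 accounted for 3 of them. It was the highest for the Trf locus, at 12.29 log2 CPM against 11.88 to 11.98 (gap 0.76 of the group's range), the highest for Alad, at 4.91 against 4.51 to 4.61 (gap 0.744), and the lowest for Bach1, at 7.12 against 7.70 to 7.82 (gap 0.828). Vehicle replicate 3 was the highest of its group for Ncoa4, at 6.50 against 6.18 to 6.26 (gap 0.753). Vehicle replicate 5 was the highest for Fech, at 5.00 against 4.71 to 4.77 (gap 0.773).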

How the results depend on the processing

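Slc40a1 kept its direction and call in all 25 alternatives (0.95 to 1.24), and 3 of the 10 genes were higher in each fit that left out 1 sample. The number was 4 with DESeq2, with limma-voom with and without quality weights, and without Rn18s-rs5 and Gm42418, where the Trf locus was added, and 2 within each library set. The number lower was 0 with limma on FPKM at either pseudocount and within the libraries with Rn18s-rs5 above 0, and 0 to 1 with 1 sample left out. Pathway genes lower numbered 24 with library totals, 20 with quality weights and 10 to 21 with 1 sample left out; the 21 came without JHU083 replicate 3. Within the libraries with Rn18s-rs5 at 0, 532 loci and 6 pathway genes were higher and 586 and 4 lower, and within the others 1276 loci and 11 pathway genes were higher; these fits hold 5 samples each. Values of the 10 genes that changed sign were never past the threshold: Cd163 (-0.552 with Rn18s-rs5 at 0), Fth1 (-0.050 with library totals, -0.029 with Rn18s-rs5 above 0, -0.043 to 0.12 with 1 sample left out) and Blvrb (-0.0034 to 0.20). Others were Aco1 (-0.031) and Prdx1 (-0.043) with library totals, Prdx1 with quality weights (-0.022), with Rn18s-rs5 above 0 (-0.096) and with 1 sample left out (-0.091 to 0.155), and Ndufv2 (0.098, and -0.074 to 0.066) and Vti1b (0.083, and -0.070 to 0.048) with Rn18s-rs5 at 0 and with 1 sample left out. The cause of these changes was not tested. Same-numbered samples did not pair: their deviations correlated at -0.57 to 0.091, and 0 of 10 samples correlated best with their own number. With the replicate block, 1612 loci were higher and 1757 lower, and 3 of the 10 genes were higher and 1 lower as reported. At these depths 3 fragments are 0.191 to 0.269 CPM, so genes below that cannot be compared.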

Other observations

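Cd163 varied more between libraries of a group than between the groups, and some genes had similar profiles. After group means were subtracted, the closest of 6718 loci were Fchsd2 (r = 0.99), Enpp2 (r = 0.95), Vprbp (r = 0.94), Klf9 (r = 0.94) and Ldlrad3 (r = 0.94), over 10 libraries. These genes were chosen after the spread of Cd163 was seen. Their r are the highest of 6718 loci over 10 libraries, so they are high in part by selection and are a description. The split by Rn18s-rs5 was not subtracted. Cd163 had 111 and 176 CPM in the JHU083 libraries at 0 and 369 to 449 CPM in the other JHU083 libraries. In vehicle the sets overlapped, with 113 to 304 CPM at 0 and 112 and 375 CPM in the others. Klf9, a transcription factor that responds to glucocorticoids, also rose in JHU083, from 8.97 to 25.9 CPM (log2 fold change 1.53, edgeR adjusted p = 0.000167), and Ldlrad3 from 10.99 to 22.8 CPM (1.05, adjusted p = 0.000199). Fchsd2 rose as well, from 39.4 to 62.8 CPM (0.67, adjusted p = 0.018). Vprbp, with 21.6 and 18.9 CPM, did not pass (-0.19, adjusted p = 0.391). Enpp2, which encodes autotaxin, had 19.6 and 21.3 CPM (0.12, adjusted p = 0.756) and did not pass.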
